A study of Mus musculus with 35 samples.

Results

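The genes described here are those whose transcription start carried the repressive histone mark H3K27me3 and lacked the active mark H3K27ac in every cell line examined. They were found in cultured mouse neural progenitor cells (NPCs) with or without Mettl14. A gene was chosen when the window of 1 kb either side of at least 1 of its known transcript starts overlapped an H3K27me3 peak in all 4 lines, and no start window of the gene overlapped an H3K27ac peak in any line. The choice used the authors' peak lists of chromatin immunoprecipitation (ChIP) alone, and 945 of 23906 genes (3.95%) were selected on them. For comparison, 872 genes had both marks in every line, 10624 had H3K27ac alone, 5813 had neither mark in any line and 5652 had some other pattern.

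The ChIP lists came from 2 NPC lines homozygous for the Mettl14 knockout (KO, lines 530 and 534) and 2 wild-type lines (WT, lines 532 and 541). RNA-seq came from 3 KO, 3 heterozygous (Het) and 3 WT libraries sequenced as batch 1, and from 2 KO and 2 WT libraries of the 4 ChIP lines sequenced as batch 3. N6-methyladenosine (m6A) was mapped in WT cells. The cells were of embryonic origin and carry separate line numbers, so a replicate is a line. The protocols describe a germline knockout made by crossing floxed Mettl14 mice to EIIa-Cre mice and a brain knockout made with nestin-Cre, and do not say which of them gave the NPC lines. The RNA tables number libraries within a group without tying them to a line, so libraries are named by group and batch. Batch 1 and batch 3 share no library, and the H3K27me3 state of the batch 1 lines was not measured.

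H3K27me3 is written by Polycomb repressive complex 2 through its Ezh2 or Ezh1 subunit and is read by Polycomb repressive complex 1, which compacts chromatin. H3K27ac occupies the same lysine at active promoters and enhancers, so a single histone tail cannot carry both. In neural progenitors Polycomb domains are known to cover developmental regulators of other lineages, of other positions along the body axis and of later stages of differentiation. Mettl14 is the partner of Mettl3 in the complex that deposits m6A on messenger RNA.

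The start regions of 6 genes show the range of DNA under the mark. Each is 300 bases from RefSeq (GRCm38.p6, the build that mm10 names), 250 before and 50 after the annotated start, read along the gene's strand, with every CG dinucleotide in capitals because CG-rich starts are the known platform of Polycomb complexes in mammals. Hoxb4 (chr11:96318017-96318316, plus strand) lies in the H3K27me3 peak with the largest mean width over lines and was added after its values were seen. Gm13247 (chr4:146514670-146514969, plus strand), Calcr (chr6:3763574-3763873, minus strand) and Rnf43 (chr11:87662837-87663136, plus strand) were among the largest RNA rises in KO cells. Lin28b (chr10:45470152-45470451, minus strand) and Slc38a4 (chr15:97055907-97056206, minus strand) were the largest falls.
Hoxb4: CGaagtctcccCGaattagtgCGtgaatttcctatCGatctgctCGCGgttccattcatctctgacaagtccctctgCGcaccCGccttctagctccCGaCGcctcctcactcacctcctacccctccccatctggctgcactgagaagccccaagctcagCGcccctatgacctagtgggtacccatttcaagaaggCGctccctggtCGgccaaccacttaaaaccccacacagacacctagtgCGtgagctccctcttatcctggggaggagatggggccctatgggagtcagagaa
Gm13247: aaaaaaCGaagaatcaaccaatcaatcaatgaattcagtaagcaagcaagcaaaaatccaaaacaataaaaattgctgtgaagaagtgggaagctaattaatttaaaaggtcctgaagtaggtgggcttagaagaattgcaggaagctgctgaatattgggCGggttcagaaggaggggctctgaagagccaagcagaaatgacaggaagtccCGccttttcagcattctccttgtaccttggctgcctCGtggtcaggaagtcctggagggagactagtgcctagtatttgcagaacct
Calcr: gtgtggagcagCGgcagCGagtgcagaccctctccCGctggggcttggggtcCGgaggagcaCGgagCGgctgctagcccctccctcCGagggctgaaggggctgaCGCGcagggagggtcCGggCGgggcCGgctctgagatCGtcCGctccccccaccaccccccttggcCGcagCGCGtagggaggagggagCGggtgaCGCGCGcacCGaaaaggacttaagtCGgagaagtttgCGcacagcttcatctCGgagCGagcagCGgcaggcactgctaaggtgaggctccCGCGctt
Rnf43: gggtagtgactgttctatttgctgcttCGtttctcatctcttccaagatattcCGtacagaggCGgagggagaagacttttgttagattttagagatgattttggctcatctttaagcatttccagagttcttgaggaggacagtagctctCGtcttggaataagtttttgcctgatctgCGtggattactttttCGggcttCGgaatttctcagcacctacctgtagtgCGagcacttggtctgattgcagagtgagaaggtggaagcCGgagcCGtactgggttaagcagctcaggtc
Lin28b: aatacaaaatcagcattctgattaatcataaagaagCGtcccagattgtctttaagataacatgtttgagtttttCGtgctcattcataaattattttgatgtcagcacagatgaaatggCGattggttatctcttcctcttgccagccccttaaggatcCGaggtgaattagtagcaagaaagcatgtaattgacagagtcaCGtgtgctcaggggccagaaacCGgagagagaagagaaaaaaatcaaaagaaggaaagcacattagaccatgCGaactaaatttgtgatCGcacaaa
Slc38a4: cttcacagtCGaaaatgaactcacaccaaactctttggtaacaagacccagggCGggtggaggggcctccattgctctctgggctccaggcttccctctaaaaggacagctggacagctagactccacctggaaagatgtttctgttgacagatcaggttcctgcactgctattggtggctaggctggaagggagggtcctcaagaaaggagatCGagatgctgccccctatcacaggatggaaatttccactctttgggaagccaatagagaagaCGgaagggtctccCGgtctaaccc
The Gm13247 stretch overlapped an H3K27me3 peak in 1 line, and each of the others did in all 4. The rule read the wider windows around the starts of the authors' annotation. The Calcr start held 29 CG dinucleotides, Hoxb4 held 14, Rnf43 held 10, Lin28b held 8, Slc38a4 held 5 and Gm13247 held 4. Over 32851 RefSeq promoters of this length the median was 7, the 10th percentile was 1, the 90th percentile was 31, and 94.6% held at least 1. The mark lay over a start close to the 90th percentile and over one below the median. A comparison of the whole set is void, because only 641 of the 945 genes (67.8%) had a promoter sequence, under the 80% needed.

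The set also held 35 microRNA genes, among them the microRNAs embedded in the Hox clusters, which are known to target Hox messages. Their mature 5p strands from RefSeq are shown with the seed, bases 2 to 8, in capitals, because they fall into families that share a seed across clusters.
miR-10a-5p: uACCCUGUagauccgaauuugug
miR-10b-5p: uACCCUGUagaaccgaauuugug
miR-196a-5p: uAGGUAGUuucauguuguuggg
miR-196b-5p: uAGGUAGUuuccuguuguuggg
Mir10a of the Hoxb cluster (chr11:96317186-96317208, plus strand) and Mir10b of the Hoxd cluster (chr2:74726074-74726096, plus strand) share the seed ACCCUGU. Mir196a-1 of the Hoxb cluster (chr11:96265187-96265208, plus strand), Mir196a-2 of the Hoxc cluster (chr15:102973365-102973386, plus strand) and Mir196b of the Hoxa cluster (chr6:52230129-52230150, minus strand) share the seed AGGUAGU. RNA-seq of polyadenylated RNA does not measure mature microRNAs, so no level is given for them.

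Many developmental regulators were in the set. Of 332 genes in 10 transcription factor families, 166 (50%) were members, which is 17.6% of the 945. The body-axis Hox genes were nearly complete, with 38 of 39 (97.4%). Other homeobox genes gave 69 of 117 (59%), Pax genes 6 of 9 (66.7%), Gata genes 4 of 6 (66.7%) and T-box genes 8 of 16 (50%). Lower shares were found for forkhead genes with 15 of 44 (34.1%), POU genes with 5 of 15 (33.3%), tissue bHLH genes with 17 of 56 (30.4%), Sox genes with 3 of 19 (15.8%) and Zic, Gli and Glis genes with 1 of 11 (9.09%). Across all genes the share was 3.95%.

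Position and lineage ran through these families. Regulators of hindbrain and spinal cord identity gave 23 of 33 members (69.7%), including the motor neuron factors Mnx1, Isl1 and Lhx3, the hindbrain factor Phox2a, and the dorsal interneuron factors Lbx1 and Tlx3. Regulators of the early germ layers gave 13 of 24 (54.2%), including the endoderm factors Foxa1, Foxa2, Gata4, Gata6, Sox17 and Pdx1 and the heart factors Hand1, Hand2, Nkx2-5 and Tbx5. Forebrain regulators gave 13 of 32 (40.6%), among them Nkx2-1, Lhx6, Lhx8, Dlx5, Dlx6 and Gsx1 of the ventral forebrain and Neurod1, Neurod2, Fezf2 and Tbr1 of excitatory neurons.

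Signalling ligands formed another group. Members included 8 of 19 Wnt ligands (42.1%), namely Wnt1, Wnt3, Wnt3a, Wnt6, Wnt8b, Wnt9b, Wnt10a and Wnt10b, and 6 of 22 FGF ligands (27.3%), with Fgf8 and Fgf17 of the midbrain-hindbrain organiser. Of the Hedgehog ligands Shh and Ihh were members (2 of 3). The TGF-beta family gave 5 of 32 (15.6%), including Bmp4.

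Genes of mature neurons were present at lower shares. Potassium channel genes gave 17 of 92 (18.5%), glutamate receptor genes 6 of 26 (23.1%), amine and acetylcholine receptor genes 9 of 51 (17.6%) and GABA and glycine receptor genes 3 of 26 (11.5%). Solute carriers gave 37 of 377 (9.81%), and these included the vesicular transporters that define transmitter identity, namely Slc17a6 and Slc17a7 for glutamate, Slc32a1 for GABA and glycine, and Slc18a3 for acetylcholine. Other tissues were present with 8 of 99 keratin genes (8.08%) and 6 of 44 collagen genes (13.6%). Sensory receptor genes gave 10 of 1493 (0.67%) and Zfp genes 2 of 359 (0.557%), both under the share over all genes. No ribosomal protein gene (of 81), no Polycomb complex 2 or H3K27 demethylase gene (of 14), no Polycomb complex 1 gene (of 18) and no CDK inhibitor gene (of 7) was a member.

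**Figure D1:**
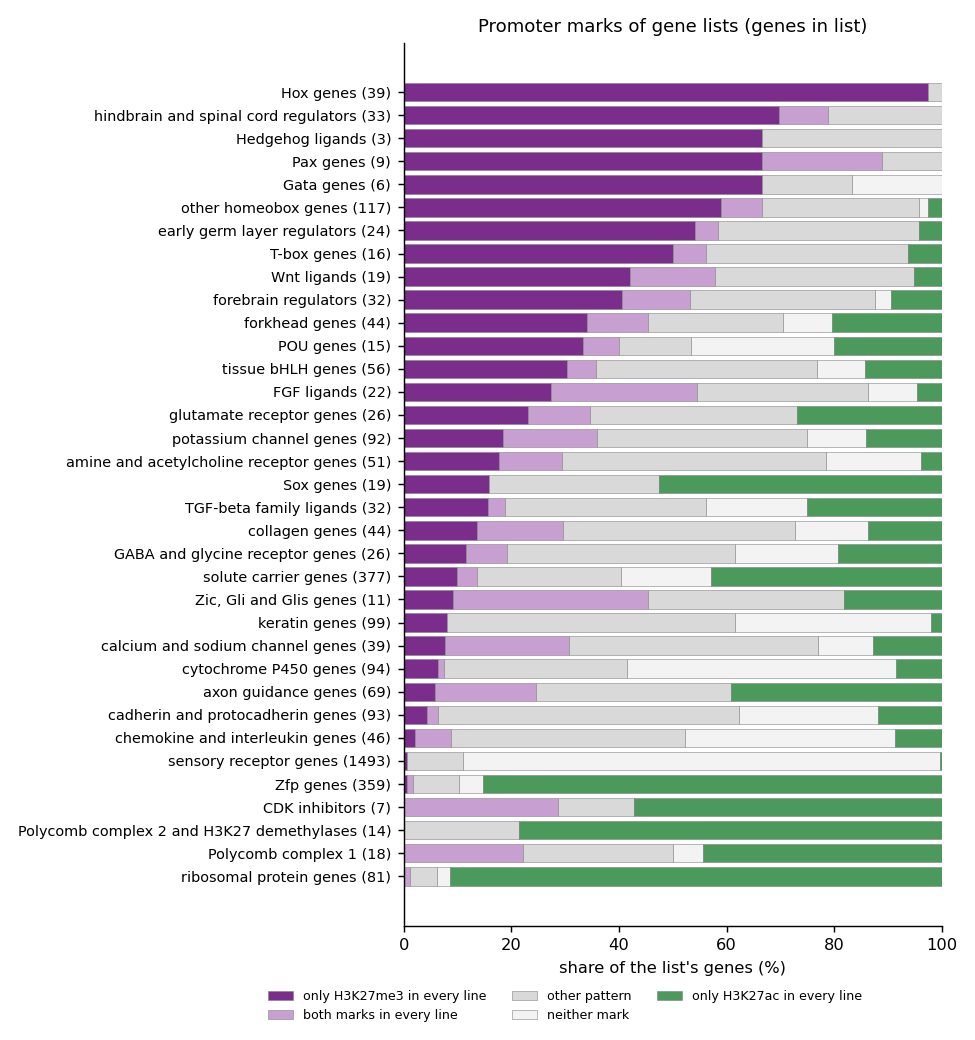
Share of the genes of each list (x axis, percent) by promoter marks, with the number of genes of the list in brackets; the first segment is H3K27me3 alone in every line. Hox genes reach 97.4%, other factor families run between 9.09% and 66.7%, and ribosomal protein genes have none.

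All lists together held 304 members (32.2%), so most members belonged to none of them. By RefSeq type 814 members were protein coding, 78 were long noncoding RNAs and 35 were microRNAs. Members were found on every autosome and on X, and their share of a chromosome's genes ran between 1.57% on X and 5.78% on chromosome 12. Members shared peaks, since between 177 and 183 of them in a line lay in a peak with another member, so they are not independent of each other.

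The peaks, which chose the genes and are given as a description, were wide and strong for these lists. The median fold over input of the strongest peak at a member's start was 7.12 in KO 530, 7.34 in KO 534, 6.75 in WT 532 and 7.95 in WT 541. Over all H3K27me3 peaks of the same lists the medians were 3.2, 3.27, 3.31 and 3.63, in the same order of lines. The median width at members was 4925 bases in KO 530, 4902 in KO 534, 5074 in WT 532 and 5175 in WT 541, where the typical peak of a list spanned 558 to 632 bases. The mark covered the whole 2001-base start window at 582 to 585 members in each line (61.6% to 61.9%). At genes with both marks it did so for 25.3% to 35%, with median folds of 4.14 to 4.68. Since lists differ in length, these values are not compared between KO and WT lines.

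Pooled, the factor families had wider and stronger peaks than the other members. The 166 members of the 10 families had a median fold of 15.2, as the mean over lines, and a median width of 21.4 kb. The other 779 had medians of 6.12 and 4.01 kb. Each gene counts once, and the 38 Hox members (median width 73.1 kb) mostly share a few long peaks. The pooled medians of the families therefore count those peaks repeatedly. Pax genes (6 members) had a median width of 30 kb, Gata genes (4) 21.2 kb, forkhead genes (15) 19.6 kb and other homeobox genes (69) 18.1 kb. POU genes (5) had 10.9 kb, tissue bHLH genes (17) 11.1 kb and the single Gli member 2.86 kb. Signalling ligands overlapped this range, with 15.1 kb for Hedgehog (2), 10.9 kb for Wnt (8) and 6.07 kb for FGF genes (6), and potassium channel genes had 4.31 kb. Sensory receptor genes were at the other end with a median fold of 3.42 and a width of 0.984 kb.

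Long peaks covered most of each Hox cluster. In the Hoxb cluster 1 peak per line held Hoxb2 to Hoxb9, of 131318 bases in KO 530 (chr11:96245968-96377285), 145326 in KO 534, 131209 in WT 532 and 113844 in WT 541. That peak held 12 members in 3 lines and 11 in WT 541, where Hoxb1 fell outside it, and Hoxb13 lay in a separate peak in every line. Hoxa3 to Hoxa11 lay in 1 peak of 82289 bases in KO 530, 80802 in KO 534 and 81047 in WT 532, and in a pair of 48369 and 31855 bases in WT 541, with Hoxa2 and Hoxa13 in separate peaks. Hoxd3 to Hoxd13 lay with Evx2 in 1 peak of 88483 bases in KO 530 and 88339 in WT 532, which was broken in KO 534 and WT 541, and Hoxd1 lay in a separate peak. Hoxc4 to Hoxc13 lay in 1 peak of 182214 bases in KO 530, which was broken in the other 3 lines. A break occurred in both genotypes.

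**Figure D2:**
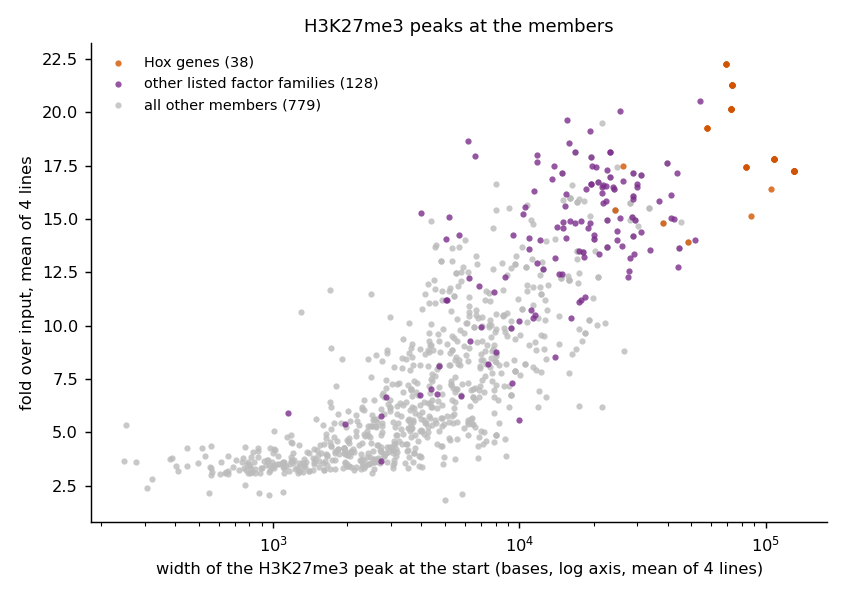
H3K27me3 peak at the start of each of the 945 genes, with width in bases on a log axis (x) and fold over input (y), both as the mean of 4 lines. The 38 Hox genes lie at the wide, strong end, the other 128 factor genes sit mostly above a fold of 10, and the remaining 779 spread down to folds near 2.

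Active chromatin was often near. The nearest H3K27ac peak of any line lay at a median of 10.7 kb from a member's starts, under 5 kb for 251 members and over 50 kb for 153. The edge of the rule ran through related genes. A further 296 genes met the H3K27me3 condition and had H3K27ac in exactly 1 line, which was KO 530 for 28, KO 534 for 89, WT 532 for 108 and WT 541 for 71. The strongest of these were Tbx2 and its neighbour 2610027K06Rik with a mean H3K27me3 fold of 16.87, Lmx1a with 16.3 and Lhx4 with 15.69, each beside an H3K27ac peak of fold 2.78 to 2.82. Another 176 genes lacked H3K27ac and had H3K27me3 in only 3 lines, and the strongest of these, Hapln2 and Rhd, had a mean fold of 3.61, with 0 for the missing line. On the inner side, the peak reached 21 bases into the window of Dnajb8, 30 of Il31, 38 of Hba-x and 39 of Upk2 in the line where it covered least.

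RNA was not used to choose the genes. Most members gave almost none of it. Of the 945 genes, 941 had a value in both RNA tables, which made 939 values because some loci join genes. In WT libraries 73 of 940 member values (7.77%) averaged over 1 CPM (fragments scaled to the size of the library) in batch 1 and 64 (6.81%) in batch 3. The share was 69.4% and 65.7% for genes with both marks, 93% and 91.3% for genes with H3K27ac alone, 9.59% and 6.88% for genes with neither mark and 54.4% over all genes in batch 1. No fragment was found in any of the 13 libraries for 261 members (27.8%), at most 3 fragments in every library for 590 (62.8%), and a group mean over 1 CPM in any group for 115 (12.2%). MicroRNA genes, 35 of the 945, were not taken out of any of these shares, though the libraries do not measure mature microRNAs. Library totals ran from 14.1 to 20 M fragments. A low level can reflect RNA in a few cells or little RNA per cell, which cannot be told apart in bulk samples.

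**Figure D3:**
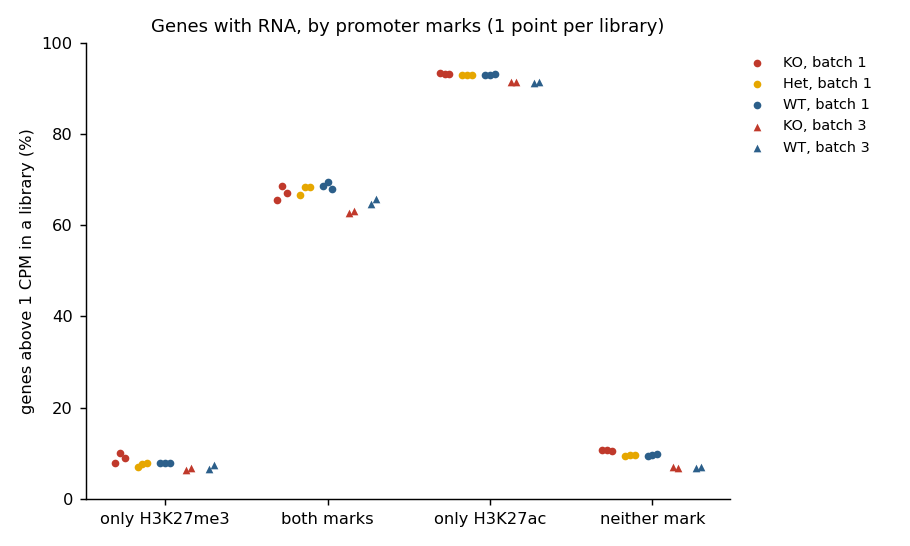
Percent of genes above 1 CPM (y axis) in each library, for the 4 promoter classes (x axis); circles are batch 1, triangles batch 3, red KO, yellow Het and blue WT. Genes with only H3K27me3 stay between 6.28% and 10.1% in all 13 libraries, close to genes with neither mark and far below those with both marks.

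The share above 1 CPM was 80 of 940 (8.51%) in KO, 66 (7.02%) in Het and 73 (7.77%) in WT cells of batch 1, and 62 (6.6%) in KO and 64 (6.81%) in WT cells of batch 3. Single libraries of batch 1 ran from 7.87% to 10.1% in KO, from 6.91% to 7.98% in Het and stood at 7.87% in each WT library. The genes above 1 CPM were partly different ones: 28 passed only in KO, 22 only in WT and 51 in both in batch 1, and 16 passed only in KO, 18 only in WT and 45 in both in batch 3. The same count was not made over all genes, so it does not set the members apart from other genes of low level.

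The Hox genes were silent. Of the 38 Hox members 31 had no fragment in any library, and the highest count in 1 library was 4 fragments, at Hoxc13. No fragment of Hoxb2, Hoxb4, Hoxb5, Hoxb6, Hoxb7 or Hoxb8 was found in any library, and Hoxb3 had 2 fragments, both in a single library. A count of 0 allows up to 3 fragments in a library, and this floor covers counting error only. None of the 38 was high enough to test. Pax, forkhead, Sox and Gata members had no tested gene either: their highest mean over the 5 WT libraries was 0.1 CPM, for forkhead genes. The same held for the 13 germ layer and 23 hindbrain and spinal cord regulators, whose highest means over WT libraries were 0.0791 CPM for the germ layer and 0.233 CPM for the hindbrain and spinal cord list. Foxf1, a forkhead factor of mesoderm, had 0.582, 0.458 and 0.993 CPM in KO against 0.0631, 0.264 and 0.105 in WT cells of batch 1, and 0.133 and 0.23 in KO against 0 and 0.0673 in WT cells of batch 3. Pou4f1, a factor of sensory neurons, had 0.37, 0.286 and 0.567 CPM in KO against 0, 0 and 0.0527 in WT cells of batch 1, and 0.0666 and 0.518 in KO against 0.187 and 0.404 in WT cells of batch 3. KO libraries lay above WT libraries in both batches for Foxf1 and in batch 1 for Pou4f1, and neither gene was tested. Phox2a reached 0.508 CPM in KO and 0.345 CPM in WT cells of batch 1, and its exons overlap those of Inppl1 on the opposite strand.

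The few members with high RNA were of other kinds. The highest value belonged to Rn45s, the ribosomal RNA precursor, with a weak peak of mean fold 2.1. The libraries were made from polyadenylated RNA after ribosomal RNA depletion. Rn45s had 3708 FPKM (fragments scaled to gene length and library size) in KO and 5411 in WT cells of batch 1, against 158 in KO and 135 in WT cells of batch 3. The clustered protocadherins, cell surface adhesion molecules, formed 1 joined locus of 37 genes, of which 2 are members, with 152 FPKM in KO and 149 in WT cells of batch 1. Rnf220, a ubiquitin ligase, had 31.1 ± 1.9 FPKM in KO and 37.5 ± 4.7 in WT cells of batch 1 (SD, n = 3 each), under a strong peak of mean fold 12.35. Lmo3, a LIM-only transcription cofactor, had 13.8 ± 2.2 and 16.8 ± 2.2 FPKM in the same groups, and Samd11 had 3.18 ± 0.97 and 9.53 ± 1.1. Samd11 overlaps the expressed gene Noc2l, and Zfp385c overlaps Nkiras2, both on the opposite strand. Gp1bb and Tymp share a locus with a neighbour that has H3K27ac. Whether counting used the strand is not given in the sources used here, so reads of such partners cannot be told apart.

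The main comparison asked how RNA of these genes differs when Mettl14 is lost. Members changed in both directions. Over both batches 163 of the 939 member values were high enough to test, and 78 of them (47.9%) were called at an adjusted p below 0.05 by edgeR's quasi-likelihood test. Of all 13635 genes tested 60.8% were called. Higher in KO were 46 members (28.2%), against 31.7% of all genes, and lower were 32 (19.6%), against 29.1%. The tested members had a median of 0.895 CPM, where all tested genes had 30.4 CPM, so members had fewer counts behind a test. A member that passed the filter only through the group in which it is high had to differ, so the counts over tested members are a description. The median log2 fold change was 0.05 over tested members and 0.03 over all tested genes. Fits on FPKM moved the direction of the calls to 39 higher and 39 lower of 78 with a pseudocount of 0.1, and to 36 and 38 of 74 with a pseudocount of 1.

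Requiring in addition that KO and WT libraries did not overlap in either batch, in the same direction, left 53 members, 31 higher and 22 lower, and 46.5% of all genes tested met the same condition. By promoter class, 429 of 717 tested genes with both marks were called (59.8%), 6080 of 9706 with H3K27ac alone (62.6%), and 361 of 753 with neither mark (47.9%). The share for members equalled that for genes with neither mark. Some cell type markers moved with genotype in the same libraries. The summed level of 6 astrocyte markers was 1930 to 3296 CPM in KO and 417 to 604 CPM in WT libraries of batch 1. In batch 3 it was 413 to 556 CPM in KO and 182 to 242 CPM in WT libraries. Of the 6 astrocyte markers 5 were called higher and 1 lower in KO. The sum of 10 progenitor markers, all above 1 CPM in every group, was 5316 to 5744 in KO and 8147 to 8851 in WT cells of batch 1. In batch 3 it was 5832 to 5834 in KO and 8009 to 8542 in WT cells. Of these 10 markers 4 were called higher and 4 lower in KO. Fibroblast and pericyte markers summed to 10.8 to 12.3 CPM in KO and 2.38 to 2.9 in WT libraries of batch 1, and to 6.53 to 12.1 in KO and 1.75 to 3.87 in WT libraries of batch 3, with 3 of 4 tested called higher. Choroid plexus markers summed to 0.993 to 2.38 CPM in KO and 4.17 to 6.42 in WT libraries of batch 1. In batch 3 they summed to 0.333 to 2.13 in KO and 11.7 to 15 in WT libraries. Of these 5 markers 2 were tested and 1 was called lower. Markers of the oligodendrocyte lineage summed to 1006 to 1212 CPM in KO and 1107 to 1407 in WT libraries of batch 1. In batch 3 they summed to 1988 to 2274 CPM in KO and 1468 to 1473 in WT libraries, and of 7 tested 2 were called higher and 2 lower. Microglia markers summed to at most 1.99 CPM in any library. The part of these shifts in the changes of members was not tested.

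Among the largest rises were a receptor, 2 potassium channels and a Wnt regulator that WT cells hardly transcribed. The largest rises and falls were taken from called members whose KO and WT libraries did not overlap in either batch. That separation was a condition of choice and not a result. Members with RNA almost only in KO or in WT cells passed the low-count filter through that group. Their difference was set in part by being tested. Gm13247, a protein-coding gene on chromosome 4 (chr4:146502000-146539395), had 1.32, 2.29 and 2.13 CPM in KO and 0 in each WT library of batch 1, and 1.53 and 1.5 CPM in KO and 0 in both WT libraries of batch 3. It was at least 11-fold higher in KO in batch 1 and at least 7.8-fold in batch 3, against a floor of 3 fragments per library (adjusted p = 4e-05, edgeR). Its H3K27me3 peak was weak, with a mean fold of 3.04, and whether its reads are shared with a near-identical copy was not tested. Calcr, the calcitonin receptor, had 1.48, 2.06 and 1.99 CPM in KO libraries of batch 1, against 0, 0.0661 and 0 in WT. In batch 3 it had 0.333 and 0.173 CPM in KO and 0 in both WT libraries, which is at least 1.3-fold. The rise of Calcr was far smaller in absolute level in batch 3 (log2 fold change over batches 5.97, SE 0.57, adjusted p = 8.3e-06, edgeR).

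Rnf43, a ubiquitin ligase that removes Frizzled receptors and so restrains Wnt signalling, had 5.66, 4.64 and 5.25 CPM in KO and 0.758, 0.132 and 0.158 CPM in WT libraries of batch 1. In batch 3 it had 1.67 and 0.46 CPM in KO and 0 in both WT libraries, at least 5.5-fold. The log2 fold change of Rnf43 over batches was 4.14 (SE 0.54, adjusted p = 6.7e-05, edgeR). Ovol1, a zinc finger factor of epithelia, had 2.28, 2.46 and 2.13 CPM in KO against 0.0631, 0.132 and 0.211 in WT cells of batch 1, and 1.8 and 2.7 in KO against 0.25 and 0.336 in WT cells of batch 3. It was the rise with the smallest adjusted p of the 10 largest (log2 fold change 3.5, SE 0.32, adjusted p = 6.6e-06). Cbln2, a secreted organiser of synapses, had 1.06, 1.66 and 2.06 CPM in KO against 0.0631, 0.396 and 0.105 in WT cells of batch 1, and 2.33 and 2.19 in KO against 0 and 0.202 in WT cells of batch 3. Its log2 fold change was 3.57 (SE 0.5, adjusted p = 0.00012), with a KO level as high in batch 3 as in batch 1.

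The channel gene Kcnq1 had 1.06, 0.745 and 0.284 CPM in KO and 0 in each WT library of batch 1, at least 3.8-fold higher, and 0.0666 and 0.0575 in KO and 0 in both WT libraries of batch 3, which is near the level of 1 fragment. Its exons overlap those of Kcnq1ot1, the noncoding RNA transcribed from the opposite strand, which averaged 808 ± 20 CPM in KO and 381 ± 32 in WT cells of batch 1 (SD, n = 3 each), and 129 ± 43 in KO and 97.5 ± 1.5 in WT cells of batch 3 (SD, n = 2 each). The 2 RNAs moved in the same direction, and their reads cannot be told apart. Kcnh1, another potassium channel, had 0.476, 0.974 and 0.638 CPM in KO against 0.0631, 0.0661 and 0.105 in WT cells of batch 1, with 0.0666 and 0.115 in KO against 0 in both WT libraries of batch 3 (log2 fold change 3.09, SE 0.51, adjusted p = 0.00036). Tnxb, the matrix protein tenascin X, ranged from 0.159 to 0.859 CPM in KO against 0.0527 to 0.126 in WT cells of batch 1 (2.99, SE 0.7, adjusted p = 0.0034). With limma on FPKM, Tnxb was not called at either pseudocount (adjusted p = 0.077 with 0.1 and 0.31 with 1). Kcnh1 was called with a pseudocount of 0.1 (adjusted p = 0.046) and not with 1 (adjusted p = 0.22).

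Slc17a6, the vesicular glutamate transporter, had 0.794, 0.859 and 0.709 CPM in KO and 0 in each WT library of batch 1, at least 4.3-fold higher, and 0.466 and 1.21 in KO against 0.25 and 0.269 in WT cells of batch 3 (adjusted p = 0.002 over batches). Neurod2, a bHLH factor of cortical excitatory neurons, had 0.318, 2.01 and 1.06 CPM in KO against 0, 0.0661 and 0.0527 in WT cells of batch 1, and 0.333 and 0.403 in KO against 0.187 and 0.269 in WT cells of batch 3 (log2 fold change 2.75, SE 0.78, adjusted p = 0.01). For both genes the gap between KO and WT libraries was narrow in batch 3.

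**Figure D4:**
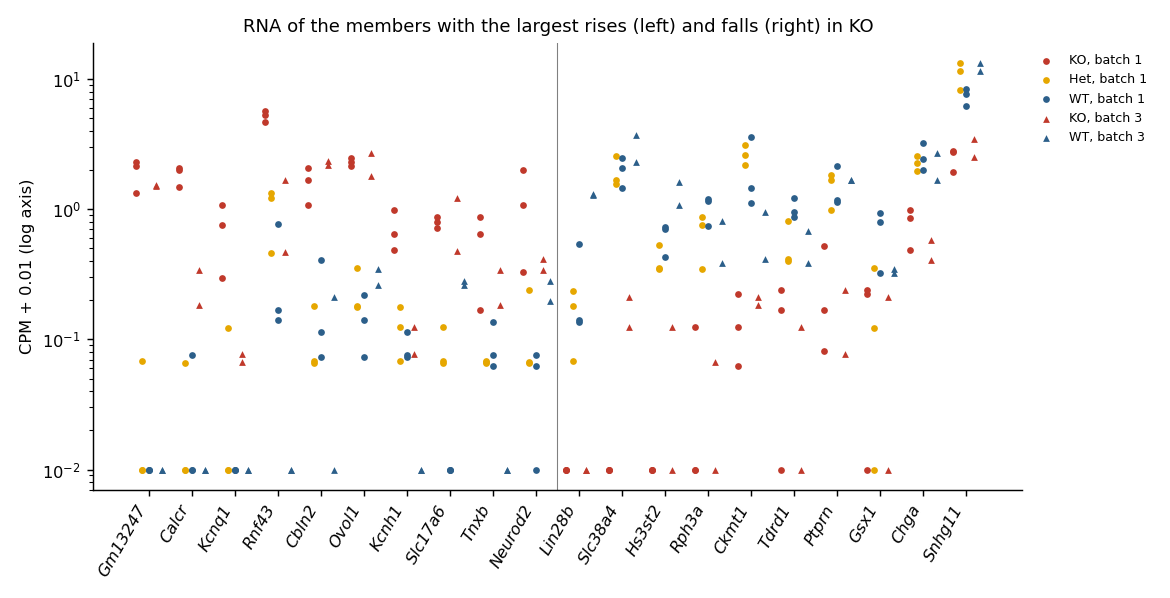
RNA level as CPM + 0.01 on a log axis (y) in every library for the 10 largest rises (left) and 10 largest falls (right) in KO; circles are batch 1, triangles batch 3, red KO, yellow Het and blue WT. Points at the bottom are libraries with no fragment, and Het libraries mostly lie with WT libraries.

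The 10 largest falls were led by an RNA-binding regulator of growth, an amino acid transporter and a heparan sulfate enzyme. Lin28b, which blocks maturation of let-7 microRNAs and is known from stem cells and early progenitors, had no fragment in any of the 5 KO libraries. WT libraries had 0.126, 0.132 and 0.527 CPM in batch 1 and 1.31 and 1.28 CPM in batch 3, so that KO was at least 1.4-fold lower in batch 1 and at least 6.9-fold lower in batch 3 (adjusted p = 0.001). Slc38a4, an amino acid transporter, had no fragment in KO libraries of batch 1 and 1.45, 2.05 and 2.47 CPM in WT, at least 11-fold lower in KO, and 0.2 and 0.115 in KO against 3.74 and 2.29 in WT cells of batch 3. Its log2 fold change over batches was -5.18 (SE 0.51, adjusted p = 1.1e-05). Hs3st2, a heparan sulfate sulfotransferase, had no fragment in KO libraries of batch 1 against 0.694, 0.727 and 0.421 CPM in WT, at least 3.4-fold lower, and 0 and 0.115 in KO against 1.06 and 1.61 in WT cells of batch 3 (adjusted p = 5.1e-05). All 3 genes had RNA in every WT library and in at most 2 of the 5 KO libraries.

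Rph3a, an effector of Rab3 on synaptic vesicles, had 0, 0.115 and 0 CPM in KO against 1.14, 1.19 and 0.737 in WT cells of batch 1, and 0 and 0.0575 in KO against 0.374 and 0.807 in WT cells of batch 3 (log2 fold change -4.26, SE 0.62, adjusted p = 0.00014). Ptprn, a protein of dense-core vesicles, had 0.159, 0.516 and 0.0709 CPM in KO against 2.15, 1.12 and 1.16 in WT cells of batch 1, and 0.0666 and 0.23 in KO against 1.68 and 1.68 in WT cells of batch 3 (-2.79, SE 0.45, adjusted p = 0.0003). Chga, chromogranin A of the same vesicles, had 0.476, 0.974 and 0.851 CPM in KO against 3.22, 2.44 and 2 in WT cells of batch 1, and 0.4 and 0.575 in KO against 2.68 and 1.68 in WT cells of batch 3 (-1.86, SE 0.28, adjusted p = 0.00019). As the choice required, no KO library reached the lowest WT library of its batch for any of the 3.

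The other falls were of mixed kinds. Ckmt1, mitochondrial creatine kinase, fell by 3.19 on the log2 scale (SE 0.58, adjusted p = 0.00067), and Tdrd1, of the piRNA pathway of germ cells, fell by 2.82 (SE 0.52, adjusted p = 0.00073). Snhg11, a noncoding RNA, had 1.91, 2.81 and 2.77 CPM in KO against 6.25, 7.66 and 8.32 in WT cells of batch 1, and 2.53 and 3.45 in KO against 13.3 and 11.6 in WT cells of batch 3 (log2 fold change -1.75, SE 0.18, adjusted p = 1.4e-05). Gsx1, a homeobox factor of the ganglionic eminences, had 0, 0.229 and 0.213 CPM in KO against 0.316, 0.925 and 0.79 in WT cells of batch 1, and 0.2 and 0 in KO against 0.312 and 0.336 in WT cells of batch 3 (-2.04, SE 0.65, adjusted p = 0.018). Gsx1 thus moved down while Neurod2 moved up, both at levels near or below 1 CPM.

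By group, few members of a family could be tested. Over all genes tested 60.8% were called, 31.7% higher and 29.1% lower. The lists as a whole, members or not, also gave calls. Higher and lower were 8 and 11 of 31 other homeobox, 3 and 1 of 6 T-box and 4 and 2 of 8 POU genes tested. They were 14 and 1 of 21 tissue bHLH, 4 and 2 of 8 Wnt and 7 and 2 of 15 TGF-beta genes. Of 69 other homeobox members 3 were tested and Gsx1 fell, while Nkx2-1 (-0.44, adjusted p = 0.43) and Barhl1 (0.31, adjusted p = 0.7) were not called. Of 8 T-box members, Tbx15, a factor of mesoderm and skin, rose (2.21, SE 0.38, adjusted p = 0.00046) and Tbr1, a factor of deep-layer cortical neurons, fell (-1.52, SE 0.4, adjusted p = 0.0064). Of 5 POU members Pou2f2 was tested and rose, by 2.41 on the log2 scale in edgeR (SE 0.26, adjusted p = 2.1e-05), although limma on FPKM gave adjusted p = 0.052 and 0.17. Of 17 bHLH members Neurod2 rose and Neurod1 was not called (-0.22, adjusted p = 0.57). Wnt3 was the 1 tested Wnt member of 8 and rose: it had 3.33, 4.01 and 3.33 CPM in KO against 0.568, 0.793 and 1.32 in WT cells of batch 1, and 2.47 and 1.61 in KO against 0.624 and 0.471 in WT cells of batch 3 (1.96, SE 0.26, adjusted p = 7.3e-05). Bmp8b, the 1 tested TGF-beta member of 5, was not called (0.54, adjusted p = 0.41). FGF and Hedgehog members had none tested.

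Neuronal membrane genes gave calls in both directions, where 60.8% of all genes tested were called. Of 17 potassium channel members 6 were tested and 4 rose, among them Kcnq1, Kcnh1 and Kcns2 (2.32, adjusted p = 0.041, edgeR). Nearly all fragments of Kcnq1, Kcnh1 and Kcns2 lay in KO libraries of batch 1. They passed the low-count filter through the group in which they are high, so their rise is a description. The call of Kcns2 was lost without single libraries of batch 1, with adjusted p up to 0.12, and with DESeq2 (adjusted p = 0.22). Of 92 listed potassium channel genes 57 were tested, 18 rose and 17 fell. Of 6 glutamate receptor members 3 were tested, Gria1 rose (1.6, SE 0.37, adjusted p = 0.0029, edgeR) and Grin3b fell (-1.07, adjusted p = 0.041, edgeR). Among all listed glutamate receptor genes 22 were tested, 7 rose and 10 fell. Grin3b overlaps the expressed gene Tmem259 on the opposite strand and lost its call in 8 of the alternative fits. Hrh3, a histamine receptor, rose (2.62, SE 0.65, adjusted p = 0.0049), with KO and WT libraries that overlapped in batch 3. Of 37 solute carrier members 6 were tested, 2 rose and 2 fell. Among all listed solute carrier genes 241 were tested, 88 rose and 62 fell. Slc12a5, the chloride exporter of mature neurons, had 1.59, 2.23 and 1.7 CPM in KO against 3.41, 3.5 and 3.48 in WT cells of batch 1, and 1.53 and 1.38 in KO against 4.55 and 5.79 in WT cells of batch 3 (-1.25, SE 0.22, adjusted p = 0.00051). Slc16a8, a lactate transporter, rose in batch 1 and was near 0 in every library of batch 3 (1.27 over batches, SE 0.24, adjusted p = 0.00095).

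Of the 8 neuronal markers 2 were members and are given for that reason, outside the naming rule. The 8 together summed to 978 to 1175 CPM in KO and 1134 to 1185 in WT libraries of batch 1. In batch 3 they summed to 819 to 982 CPM in KO and 1005 to 1128 in WT libraries. Of the 8 markers 1 was called higher and 3 lower in KO. Snap25, of the synaptic fusion machinery, had 0.159, 0.458 and 0.213 CPM in KO against 1.26, 1.25 and 0.895 in WT cells of batch 1, and 0.266 and 1.67 in KO against 2.31 and 1.61 in WT cells of batch 3 (-1.45, SE 0.45, adjusted p = 0.016). The groups overlapped in batch 3. Stmn2, a microtubule regulator of growing axons, had 0.106, 0.0573 and 0.355 CPM in KO against 0.126, 0 and 0.0527 in WT cells of batch 1, and 0.266 and 1.15 in KO against 0.936 and 2.15 in WT cells of batch 3, and it was not called.

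Within batches the picture differed in size. In batch 1, 74 of 138 tested members were called (53.6%), 46 higher and 28 lower, against 69.2% of all genes tested, 34.3% higher and 35% lower. In batch 3, from the 4 lines in which the marks were measured, 29 of 88 were called (33%), 12 higher and 17 lower, against 31.7% of all genes, 17.3% higher and 14.4% lower. Of 79 members tested in both batches 57 (72.2%) had the same sign, and 76.4% of all genes tested in both did. Called in both were 19 members, each with the same sign in both. The same count was not made over all genes, so it does not set the members apart. The direction of the calls leaned to higher in batch 1 and to lower in batch 3, and that lean itself was not tested.

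**Figure D5:**
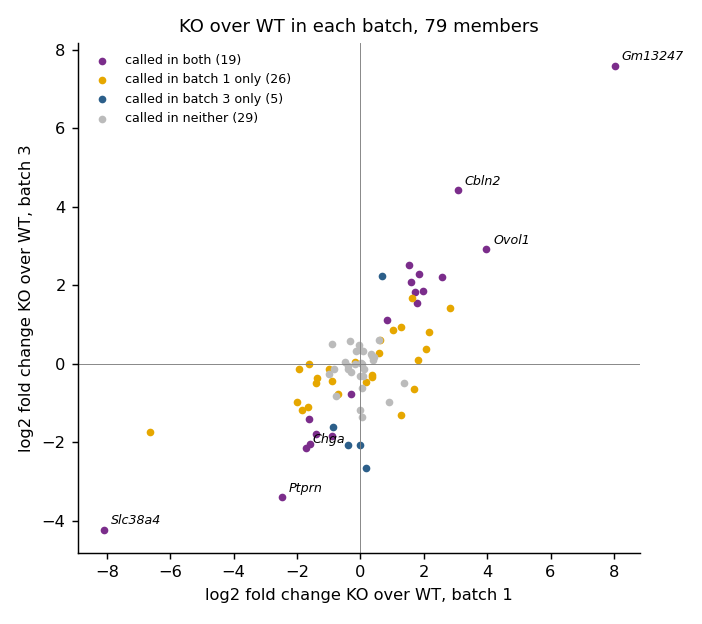
Log2 fold change of KO over WT in batch 1 (x) and batch 3 (y) for the 79 members tested in both; colours mark calls at an adjusted p below 0.05. The 19 members called in both batches lie in the quadrants of equal sign, from Slc38a4 at the lower left to Gm13247 at the upper right.

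The difference between batches was tested as an interaction. It was called for 8 of 163 members (4.91%), against 14.2% of all genes tested, and in each of the 8 the KO effect was lower in batch 3 than in batch 1. Usp35, a deubiquitinase, had 48.3, 61.3 and 56.7 CPM in KO against 15.5, 16.8 and 15.2 in WT cells of batch 1, and 8.66 and 6.96 in KO against 6.24 and 8.27 in WT cells of batch 3 (batch 3 minus batch 1 in log2 fold change -1.73, SE 0.23, adjusted p = 0.0019). KO lay far above WT in batch 1 and overlapped WT in batch 3. Gpr158, an orphan receptor of neurons, had 3.23, 2.98 and 3.12 CPM in KO against 0.947, 0.859 and 1.05 in WT cells of batch 1, and 0.733 and 0.518 in KO against 0.936 and 1.01 in WT cells of batch 3 (-2.37, SE 0.44, adjusted p = 0.0089). Dlx6os1, the noncoding RNA antisense to Dlx6, had 0.265, 1.32 and 0.638 CPM in KO against 0, 0.0661 and 0 in WT cells of batch 1, and 0.0666 and 0.115 in KO against 0.374 and 0.74 in WT cells of batch 3 (-7.26, SE 1.49, adjusted p = 0.013). Gpr158 and Dlx6os1 were above WT in KO cells of batch 1 and below WT in batch 3. The size for Dlx6os1 rests on WT values of batch 1 at the floor. Usp35, Gpr158 and Dlx6os1 were chosen after their values were seen. The batches hold different lines and carry different dates in the labels, and these cannot be told apart.

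Het cells carry 1 disrupted allele. No member of 138 tested was called between Het and WT, where 0.0146% of all genes tested were called, by edgeR. At an unadjusted p below 0.05 there were 15 members of 138 and 1175 of all 13660 genes. DESeq2 called 1 member, Rn45s (-0.55, SE 0.12, adjusted p = 0.0093). The comparison uses the same WT libraries as KO against WT in batch 1. Calcr had 0.0562, 0 and 0 CPM in Het libraries, Lin28b had 0.225, 0.0577 and 0.172, Slc38a4 had 2.58, 1.56 and 1.66, and Rnf43 had 0.449, 1.21 and 1.32. The highest Het library lay above the highest WT library for Rnf43 and Slc38a4. Rnf43 differed from WT by 1.51 on the log2 scale (SE 0.58, adjusted p = 0.55).

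The enzymes of the mark were measured in the same libraries, though none is a member. Of 13 tested genes of Polycomb complex 2 and the H3K27 demethylases 4 were higher and 8 lower in KO, beside 60.8% called over all genes tested. The 4 higher genes were Ezh1, Jarid2 and the demethylases Kdm6a and Kdm6b. The core subunits Eed and Suz12 were among the 8 lower, with log2 fold changes of -0.93 and -0.34. Ezh2, the main methyltransferase, averaged 79.5 ± 4.6 CPM in KO and 103 ± 4.4 in WT cells of batch 1 (SD, n = 3 each), and 123 ± 9.8 in KO and 241 ± 4.2 in WT cells of batch 3 (SD, n = 2 each; log2 fold change -0.6, SE 0.11, adjusted p = 0.00081). Ezh1, its paralog, averaged 17.5 ± 1.2 CPM in KO and 8.4 ± 1.3 in WT cells of batch 1, and 6.99 ± 2 in KO and 4.7 ± 0.11 in WT cells of batch 3 (0.9, SE 0.16, adjusted p = 0.00052). Of 18 Polycomb complex 1 genes 6 were higher and 3 lower, beside the same 60.8%, and Pcgf2 differed by 1.62 (SE 0.33, adjusted p = 0.0015). Mettl14 itself had 21.7 ± 1.4 CPM in KO, 23.9 ± 0.88 in Het and 23.7 ± 1.2 in WT cells of batch 1, and 26.6 ± 5.4 in KO and 36.6 ± 1.8 in WT cells of batch 3. The deletion removes part of the gene and the count covers the whole locus, so these values do not measure the deletion.

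Few members carried m6A in WT cells. An m6A peak on an exon was present in all 4 peak lists for 17 of 945 members (1.8%), in contrast to 25.1% of all genes, 30.4% of genes with both marks, 45.5% of those with H3K27ac alone and 2.29% of those with neither. By RNA level, among members between 1 and 5 FPKM in WT cells of batch 1 there were 4 of 22 (18.2%), against 39.3% of all genes at that level. Above 5 FPKM there were 4 of 16 (25%), against 49.4%. At 1 FPKM or less there were 9 of 903 (0.997%), against 2.57%. The 4 lists combine 2 immunoprecipitates with 2 inputs and are not replicates. The 17 genes included Rnf220, Cux2, Celsr3, Neurod1 and Hcn2. Gpr149, also among them, had 0.0851 CPM in WT cells of batch 1 and 0.0312 CPM in WT cells of batch 3. Strand was not used to place peaks on exons, so a peak can come from an overlapping gene. Tymp, another of the 17, shares its locus with Sco2. The genes that follow were chosen after their values were seen. Fignl2 had the smallest adjusted p of the 17: it had 15.9, 18.5 and 15.4 CPM in KO against 4.86, 5.09 and 5.11 in WT cells of batch 1, and 15.9 and 15.5 in KO against 4.99 and 3.77 in WT cells of batch 3 (log2 fold change 1.79, adjusted p = 7.9e-07). Usp35, Gsg1l and Kank3 were higher too (1.22, 2.06 and 0.63, adjusted p = 0.0031, 0.00064 and 0.002, edgeR). Hcn2 and Jph3 were lower (-1.46 and -1.03, adjusted p = 0.00082 and 0.008). The rest of the 17 were not called, and Gpr149 was not tested. The called m6A genes thus changed in both directions, where 60.8% of all genes tested were called.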

How the data were processed

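Peak lists of H3K27me3 and H3K27ac (2 KO and 2 WT lines) and of m6A (WT) were analysed with RNA-seq tables of 13 libraries. Per the submitters' processing notes the build was mm10 and the tools included TopHat2 2.1.0, Cufflinks, Cuffdiff, Bowtie2 2.3.1 and MACS2. Their settings, and whether counting used the strand, are not given in the sources used here. The authors deposited 1 histone peak list per mark and line against that line's input, with each peak's fold enrichment, its score and its −log10 p and q values, and the depth behind the lists is unknown. The m6A lists pair 2 immunoprecipitates with 2 inputs. The authors deposited estimated counts of fragments per locus and library, of which 5.31% (batch 1) and 2.31% (batch 3) were not whole to within 1e-09, and the deposited FPKM of the same libraries. The RNA table given for batch 2 was identical to that of batch 1, so its 6 libraries were not analysed here.

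Starts came from the authors' merged annotation, keeping transcripts that match a known one. In the tables of batch 1 and batch 3, 2 and 1 loci marked as holding too many fragments were left out, as were loci with no known gene (2.09% and 0.538% of fragments). Loci that join known genes (417 and 302) were kept as 1 value. Fragments were rounded, summed over loci of 1 symbol and scaled by TMM (CPM), and totals were 14.1 to 20 M fragments per library. KO was compared with WT by edgeR's quasi-likelihood test with Benjamini-Hochberg adjustment over all genes tested, over both batches with batch as a term, within each batch (batch 1 with Het in the fit) and as an interaction with batch, on genes that passed edgeR's low-count filter, at an adjusted p below 0.05. SE is the log2 fold change divided by the root of F. Replicates are separate lines. Alternatives were DESeq2, no filter, a stricter filter of 10 fragments, upper quartile scaling, limma on log2(FPKM + 0.1) and log2(FPKM + 1), each library left out, windows of 500 bases and 2 kb, and stricter peaks. Floors of 3 fragments cover counting error only. The fits were tested on simulated data. R 4.3.3, edgeR 4.0.16, limma 3.58.1, DESeq2 1.42.0, Python 3.11.15, numpy 2.4.6, pandas 2.3.3 and matplotlib 3.10.9 were used.

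Named genes were the 10 largest rises and 10 largest falls among called members whose KO and WT libraries did not overlap in either batch, up to 4 members of each list by adjusted p, the 8 highest in WT CPM, the 8 in the widest peak and those nearest the rule's edge. Some genes the rule names are not reported here. The members and lists were chosen with earlier results of these data known.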

Additional observations from a re-analysis of the deposited data

Results flagged for a closer look

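The effect of KO on RNA differed between batch 1 and batch 3 by the interaction test in edgeR for 8 members (adjusted p below 0.05 over all genes tested). Values are the log2 fold change in batch 3 minus that in batch 1. The difference was -7.26 for Dlx6os1 (SE 1.49, adjusted p = 0.013), -5.02 for Slc17a6 (SE 1.44, adjusted p = 0.047) and -3.9 for Islr2 (SE 1.05, adjusted p = 0.033). In WT libraries of batch 1 Slc17a6 had 0 CPM throughout and Dlx6os1 had 0, 0.0661 and 0 CPM. The sizes for these genes therefore rest on values at the floor. In KO cells Slc17a6 averaged 0.787 CPM in batch 1 and 0.837 CPM in batch 3. It was -2.85 for Paqr5 (SE 0.8, adjusted p = 0.037), -2.37 for Gpr158 (SE 0.44, adjusted p = 0.0089) and -1.91 for H2-M5 (SE 0.54, adjusted p = 0.039). It was -1.73 for Usp35 (SE 0.23, adjusted p = 0.0019) and -0.66 for the Pcdha/Pcdhg locus (SE 0.14, adjusted p = 0.016).

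Islr2 had 0.423, 1.15 and 0.567 CPM in KO against 0.189, 0.0661 and 0.0527 in WT cells of batch 1, and 0.266 and 0.633 in KO against 0.499 and 1.55 in WT cells of batch 3. H2-M5 had 0.688, 0.516 and 0.993 CPM in KO against 0.379, 0.462 and 0.316 in WT cells of batch 1, and 1.87 and 1.15 in KO against 3.12 and 2.76 in WT cells of batch 3. Paqr5 had 3.07, 4.35 and 3.62 CPM in KO against 2.59, 3.3 and 3.9 in WT cells of batch 1, and 0 and 0.23 in KO against 0.686 and 0.942 in WT cells of batch 3. DESeq2 called 10 members in the same test, of which 1 had a larger KO effect in batch 3.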

How the results depend on the processing

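No paired analysis was possible because the tables' replicate indices are not tied to lines and the groups hold different lines. Members called between KO and WT over batches numbered 78 in the report, 40 of 73 tested with at least 10 fragments in every library of a genotype, and 68 to 91 with 1 library left out. In batch 1 the count was 74, 117 of 648 tested without a low-count filter, and 72 to 89 with 1 library left out. Limma on FPKM gave 35 higher of 72 called and 34 of 68 there, against 46 of 74. In batch 3 the count was 29, 19 with DESeq2 and 22 to 37 with 1 library left out. Between Het and WT it was 0, 1 with DESeq2 (Rn45s) and 0 to 1 with 1 library left out, the 1 being Gm8801 without WT library 1 of batch 1 (log2 fold change -4.0, adjusted p = 0.019). WT members with RNA were 11.9% (batch 1) and 10.9% (batch 3) above 0.5 CPM, and 3.94% and 3.72% above 1 FPKM. m6A in any list was present at 40 members. Of 536 fits of the 36 named genes called, 501 kept the call, 35 lost it and 0 changed sign. Genes that lost a call included Cdh8, Epha10, Grin3b, Kcnh1, Kcns2, Pou2f2 and Tnxb. The rule gave 963 members with windows of 500 bases, 947 with 2 kb and 1048 with stricter peaks, of which 891, 859 and 817 were shared with the set described. Depth limits most members: 590 had at most 3 fragments in every library, with microRNA genes counted in. The cause of these differences was not tested.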
